A study of Homo sapiens with 8 samples.

Results

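Zinc finger genes named ZNF that lie outside chromosome 19 were examined for coverage by HP1a and HP1b peaks. Members were the protein-coding genes on chromosomes 1 to 22, except chromosome 19, whose symbol is ZNF followed by a number and at most one letter. The rule found 251 genes among 19974 protein-coding genes on chromosomes 1 to 22 and X. A member was called clustered when another member lay within 250 kb of it, and lone otherwise, which gave 120 clustered genes in 31 clusters and 131 lone genes. The RefSeq table of the build GRCh38.p14 gave their bounds, and the peaks are on hg38. The rule uses symbols and positions. There were 246 ZNF genes on chromosome 19, which serve here only for comparison.

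Most genes of this name encode transcription factors with a row of zinc fingers that bind DNA, and many carry a KRAB domain in front of the fingers. The KRAB domain recruits TRIM28, which brings the histone methyltransferase SETDB1 and HP1 proteins to places marked by trimethylation of histone H3 at lysine 9. The genes themselves arose largely by tandem duplication and often stand in clusters. Clusters of such genes are a known site of that histone mark and of HP1, chiefly from work on chromosome 19.

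HP1a (HP1α, the product of CBX5) and HP1b (HP1β, the product of CBX1) were mapped by ChIP-seq in MCF10A, a non-tumorigenic line of human breast epithelial cells. There were 4 groups with 2 libraries each, namely HP1a in wild-type cells, HP1a in cells with a knockdown of HP1b, HP1b in wild-type cells and HP1b in cells with a knockdown of HP1a. Wild-type cells had no treatment, and the labels do not give the knockdown method, its efficiency or whether the cells were a clone. Nothing in the labels says that the replicates of a group came from separate cultures, so p-values measure only the spread between these libraries, which may be technical. The HP1a lists held 134058 and 115564 peaks in wild type against 19638 and 19092 after HP1b knockdown, and the HP1b lists held 239563 and 240090 against 159536 and 225991 after HP1a knockdown. The weakest peak listed had a −log10 p of 2.75 and 2.80 in the wild-type HP1a lists and of 3.43 in both HP1a lists from the knockdown. Peak-covered bases came to 69.8, 60.4, 9.89 and 9.68 Mb for HP1a and to 158.1, 157.1, 118.4 and 164.9 Mb for HP1b, in the same order. Read numbers are not part of the deposited lists, so the depth is unknown and a gene without a listed peak is only listed at 0.

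The measure used throughout is the covered share, the percentage of a gene body with 1 kb on each side that lies under peaks. Clustered members were covered more than lone members in 8 of 8 libraries. In wild type, HP1a peaks covered on average 8.16 and 6.92% of a clustered gene against 2.69 and 2.43% of a lone gene. HP1b peaks covered 20.4 and 19.6% of a clustered gene against 7.04 and 7.31% of a lone gene. After HP1b knockdown the HP1a values were 1.86 and 1.97% for clustered genes against 0.458 and 0.565% for lone genes. After HP1a knockdown the HP1b values were 18.3 and 20.2% against 5.44 and 6.12%. The ratio of the clustered to the lone mean ranged from 2.68 to 4.06 over the 8 libraries. These are descriptions over genes that share libraries and, in clusters, neighbourhoods, so no test was made over genes. An exact permutation test of 2 against 2 libraries cannot give a two-sided p below 0.333, so no such test was made either.

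Lone members stood much closer to the rest of the genome. The 19477 protein-coding genes that are not ZNF genes had a mean covered share of 1.86 and 1.40% for HP1a and of 3.61 and 4.05% for HP1b in wild type. Lone members exceeded these by a factor of 1.45 and 1.74 for HP1a and of 1.95 and 1.81 for HP1b. For clustered members the factors were 4.39 and 4.96 for HP1a and 5.64 and 4.84 for HP1b. The ZNF genes of chromosome 19 were higher still for HP1b, at 27.5 and 26.8%, and near the clustered members for HP1a, at 9.0 and 8.31%.

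**Figure D1:**
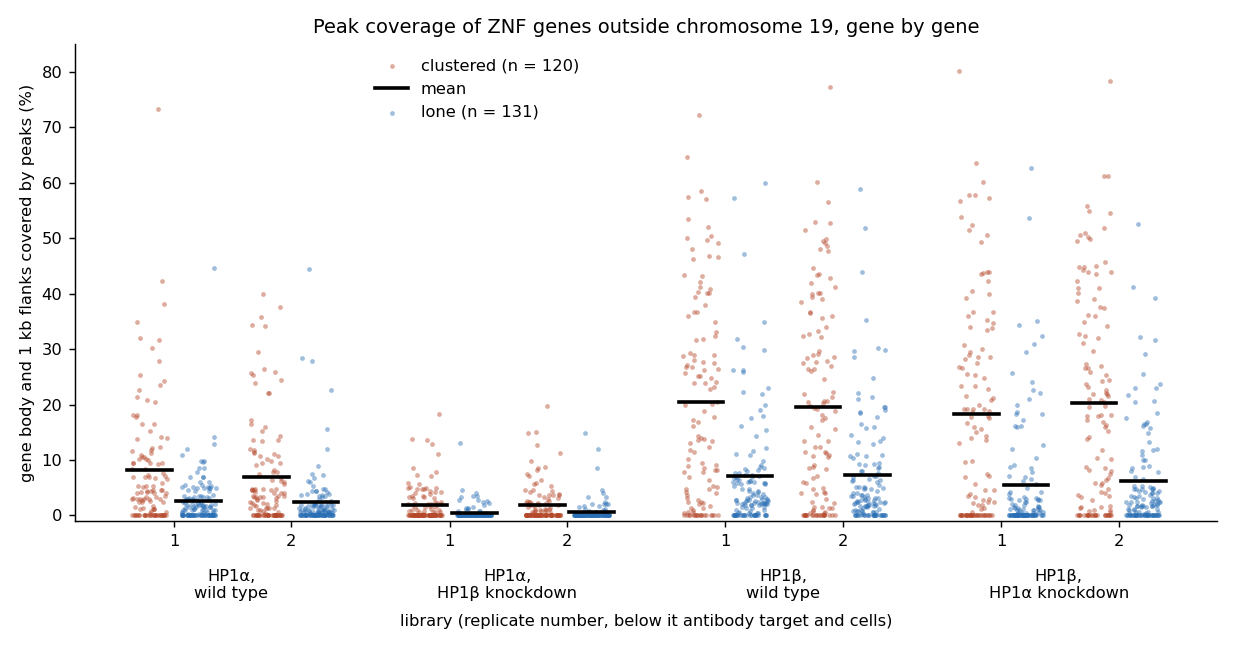
Each point is 1 ZNF gene outside chromosome 19, with the share of its body and 1 kb flanks under peaks (%, vertical axis) in each of the 8 libraries (horizontal axis), and black bars are means over genes. The clustered mean lies above the lone mean in all 8 libraries, and both classes reach down to genes listed at 0.

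Clustered members were covered more than lone members among short and long genes alike. The median length was 20.2 kb for clustered and 30 kb for lone members. Among members shorter than the median of 23.7 kb, wild-type HP1b covered 17.5 and 17.0% of the 72 clustered genes and 8.81 and 8.93% of the 53 lone genes. Among longer members it covered 24.6 and 23.4% of the 48 clustered genes and 5.84 and 6.21% of the 78 lone genes. Chromosomes 1, 5 and 8 carried the highest HP1a values. The 24 clustered genes there had 20.6 and 15.5% of their bases under wild-type HP1a peaks, against 5.06 and 4.77% for the 96 clustered genes elsewhere. Those 96 were still above the 104 lone members elsewhere, which had 2.08 and 1.48%. For wild-type HP1b the same 2 sets stood at 18.0 and 16.8% against 6.30 and 6.50%.

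Grouped by cluster size, genes in the larger clusters had a higher mean HP1b coverage, while HP1a did not follow that order throughout. Single clusters did not follow their size, as given below. Wild-type HP1b covered 25 and 24.3% of the 69 genes in the 10 clusters of 5 or more members. It covered 16.7 and 16.2% of the 23 genes in 7 clusters of 3 or 4, and 11.9 and 10.8% of the 28 genes in 14 clusters of 2. For wild-type HP1a the 3 sets had 11.2 and 9.63%, 4.04 and 4.16%, and 4.05 and 2.5%, beside 2.69 and 2.43% for the lone genes, so in replicate 1 the smaller clusters did not differ by size. For HP1a after HP1b knockdown the clusters of 2 had 1.51 and 1.44%, above the 0.641 and 0.806% of the clusters of 3 or 4.

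Clustered genes stood out from their own surroundings more than lone genes did. The 1 Mb on each side of a clustered gene was covered to 3.06 and 2.53% by HP1a and to 6.70 and 7.0% by HP1b in wild type. The clustered genes themselves exceeded that by a factor of 2.67 and 2.73 for HP1a and of 3.04 and 2.80 for HP1b. For lone genes the factors were 1.05 and 1.15 for HP1a and 1.27 and 1.28 for HP1b. In wild type, 60.8 and 56.7% of clustered genes lay above their surroundings for HP1a, and 69.2 and 67.5% for HP1b. Of the lone genes, only 38.9 and 31.3% did so for HP1a and 38.9 and 38.2% for HP1b. A total of 31 of 120 clustered genes and 4 of 131 lone genes were covered more than their surroundings in all 8 libraries, which requires a peak in each. The share over other genes was not computed.

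The classes overlapped widely, and a mean hides much of their spread. In wild-type HP1b the clustered genes ranged from 0 to 74.7% with a median of 17.8%, and 56 of the 120 had at least 20% of their bases under peaks. The lone genes ranged from 0 to 59.4% with a median of 3.48%, and 12 of the 131 reached 20%. A peak was present in all 8 libraries at 42 clustered and 17 lone genes. No list held a peak at 4 clustered and 9 lone genes.

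ZNF7, a KRAB zinc finger gene on chromosome 8 in the cluster from ZNF251 to ZNF16, had the highest covered share of all members when averaged over the 4 groups, at 50.6%. HP1a peaks covered 73.3 and 39.9% of it in wild type and 8.64 and 14.8% after HP1b knockdown. HP1b peaks covered 72.2 and 77.2% in wild type and 57.3 and 61.2% after HP1a knockdown. The HP1a values of the 2 wild-type libraries were far apart, and both lay above both knockdown libraries. ZNF16, at the other end of that cluster, had 34.8 and 37.6% of its bases under HP1a peaks and 64.6 and 51.5% under HP1b peaks in wild type. The next clustered genes by this measure were ZNF454 and ZNF354C on chromosome 5 and ZNF124 and ZNF670 on chromosome 1. Wild-type HP1b covered 50.5 and 48.5% of ZNF124 and 53.5 and 49.8% of ZNF670.

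ZNF678, a KRAB zinc finger gene on chromosome 1 (chr1:227563556-227679669), was the most covered lone member and ranked with the top clustered genes. HP1a peaks covered 44.6 and 44.4% of it in wild type and 13.1 and 14.8% after HP1b knockdown. HP1b peaks covered 60.0 and 58.9% in wild type and 62.6 and 52.6% after HP1a knockdown. In wild type it carried 30 and 29 HP1a peaks and 29 HP1b peaks in each library, and its widest HP1b peaks spanned 20.9 and 11.8 kb. The other lone genes at the top were ZNF572, ZNF436, ZNF483, ZNF662 and ZNF3. ZNF572 had wild-type HP1b shares of 57.2 and 51.8%, and ZNF436 had 29.8 and 29.9% with no HP1a peak listed after HP1b knockdown.

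Clusters were far from uniform. Among the 17 clusters of 3 or more members, wild-type HP1b coverage of the genes ran from nearly none to over 40%. The 5 genes from ZNF354A to ZNF354C on chromosome 5 had 43.7 and 42.6%, and the 5 from ZNF695 to ZNF496 on chromosome 1 had 42.1 and 40.6%. The 10 genes from ZNF722 to ZNF117 on chromosome 7, the cluster with the most members, had 26.8 and 23.3%. At the other end, the 9 genes from ZNF48 to ZNF629 (chr16:30378312-30787205) had 1.39 and 2.89%, and the 8 from ZNF786 to ZNF746 (chr7:149069641-149497809) had 2.98 and 2.68%. The highest member of each of these low clusters was ZNF689, listed at 0 and 15.6%, and ZNF398, with 4.69 and 4.84%. Both low clusters lay below the wild-type HP1b mean of other protein-coding genes, 3.61 and 4.05%, and only the 10-gene cluster has more members than they do.

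**Figure D2:**
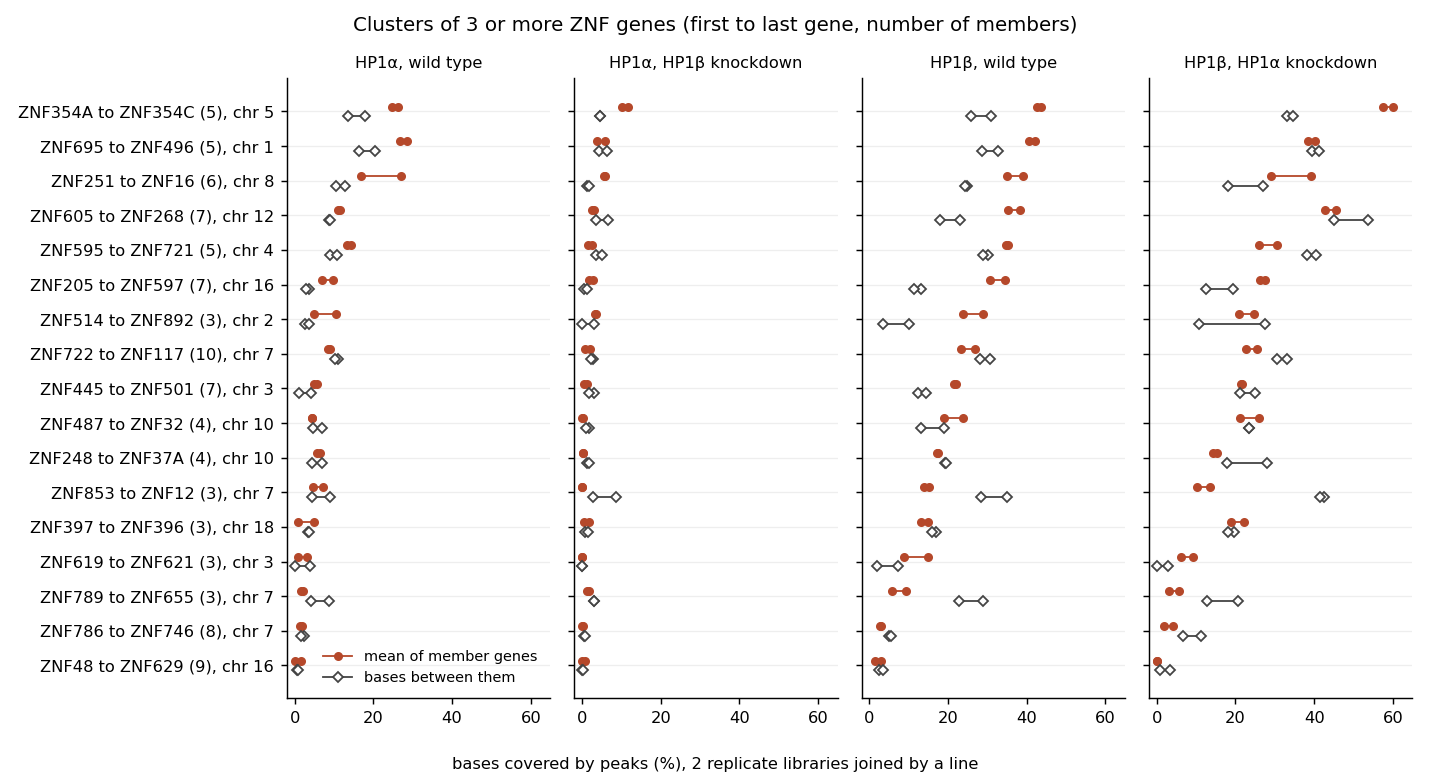
Covered share (%, horizontal axis) of the 17 clusters of 3 or more members in each group, for the mean of the member genes (filled circles) and the bases between them (open diamonds), with the 2 libraries joined by a line and clusters sorted by wild-type HP1b. The cluster from ZNF354A to ZNF354C has the highest gene mean for wild-type HP1b at 43.7 and 42.6%, and the cluster from ZNF48 to ZNF629 has the lowest at 1.39 and 2.89%.

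The bases between clustered genes were covered about as much as the genes. Over the 17 clusters, the median wild-type HP1b share was 21.5 and 23.3% for the genes and 19.3 and 19% for the bases between them. The genes exceeded the bases between them in 10 of the 17 clusters in each wild-type HP1b library. With HP1a knocked down, the bases between genes and the genes themselves moved differently. For the bases between genes, both knockdown HP1b libraries lay above both wild-type libraries in 11 of the 17 clusters and below them in 1. For the genes they lay above in 3 clusters and below in 7. As shares of the clusters these were 64.7 and 5.88% for the bases between genes and 17.6 and 41.2% for the genes. A cluster value is a mean over several genes, so these shares cannot be set against those of single genes. Gene by gene, the shares were 16.1% above and 29.5% below over the 112 clustered members with an HP1b peak. They were 10.1 and 34.5% over the 119 lone members and 8.38 and 33.9% over all 16140 protein-coding genes with such a peak. No such share was computed for bases between other genes. Whether the bases within clusters differ from other bases outside genes was therefore not tested. The genes exceeded the bases between them in 7 and 6 clusters after knockdown. In the 7-gene cluster from ZNF605 to ZNF268 at the end of chromosome 12, HP1b covered 23 and 18.0% of the bases between genes in wild type and 45 and 53.7% after HP1a knockdown. The genes of that cluster had 38.2 and 35.3% against 42.8 and 45.5%. In the 5-gene cluster from ZNF595 to ZNF721 on chromosome 4, the bases between genes had 30.2 and 28.8% against 38.2 and 40.5%, while the genes had 34.7 and 35.2% against 26.1 and 30.6%. In both clusters the wild-type and knockdown libraries did not overlap for either measure, and these clusters were chosen after their values were seen.

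Peaks in clustered genes were wider and more repeatable. The median width of wild-type HP1b peaks was 770 and 772 bases at clustered genes, 542 and 556 bases at lone genes and 520 bases in both libraries at other protein-coding genes. Peaks of 1 kb or wider made up 38.7 and 36.6% of those at clustered genes and 19.97 and 20.8% of those at lone genes. Of the bases under wild-type HP1b peaks of replicate 1 and of replicate 2, 61.6 and 64.5% were shared with the other replicate at clustered genes. The shares were 37.2 and 36.3% at lone genes and 22.5 and 21.5% at other genes. For wild-type HP1a they were 38.3 and 41.6%, 27.5 and 34.3%, and 10.6 and 13.0%. A larger covered share makes shared bases more likely, and that part was not tested.

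Where HP1a was listed at clustered genes, HP1b was mostly listed too. Wild-type HP1b peaks of the same replicate number covered 72.4 and 72.5% of the HP1a peak bases at clustered genes. They covered 40.2 and 49.5% at lone genes and 20.5 and 24.0% at other protein-coding genes. Pooled over bases, the HP1b peaks lay on 23 and 21.9% of clustered, 5.33 and 5.46% of lone and 4.46 and 4.66% of other genes. A larger HP1b share makes overlap with HP1a more likely, and that part was not tested. Across genes, the wild-type HP1a and HP1b shares had a Spearman rho of 0.88 over the 120 clustered and of 0.78 over the 131 lone genes. These correlations are across genes that share libraries and list lengths and are given as descriptions.

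Within genes, coverage dipped at the start. The 97 clustered and 99 lone members of at least 5 kb with a known strand were rescaled from start to end. In the first of 30 bins, wild-type HP1b covered 5.62 and 3.98% of clustered genes. The first 3 bins together had 11.4 and 8.18%, the middle 10 bins 23.7 and 20.9%, and the last 3 bins 20.2 and 21.5%. Lone genes had 3.71 and 4.67% in the first 3 bins and 8.48 and 7.95% in the last 3 bins. The 13077 other protein-coding genes had 2.85 and 3.22% against 3.37 and 3.74%, so the same dip was present but shallower in percentage points. For wild-type HP1a the clustered genes had 4.62 and 2.35% in the first 3 bins and 7.39 and 8.33% in the middle 10 bins. After HP1a knockdown, HP1b had 9.25 and 13.0% in the first 3 bins of clustered genes and 21.7 and 21.7% in the middle 10 bins. The first 3 bins were below the middle 10 bins in each of these libraries, while HP1a after HP1b knockdown showed no such order, with 1.85 and 1.38% against 1.54 and 1.91%.

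**Figure D3:**
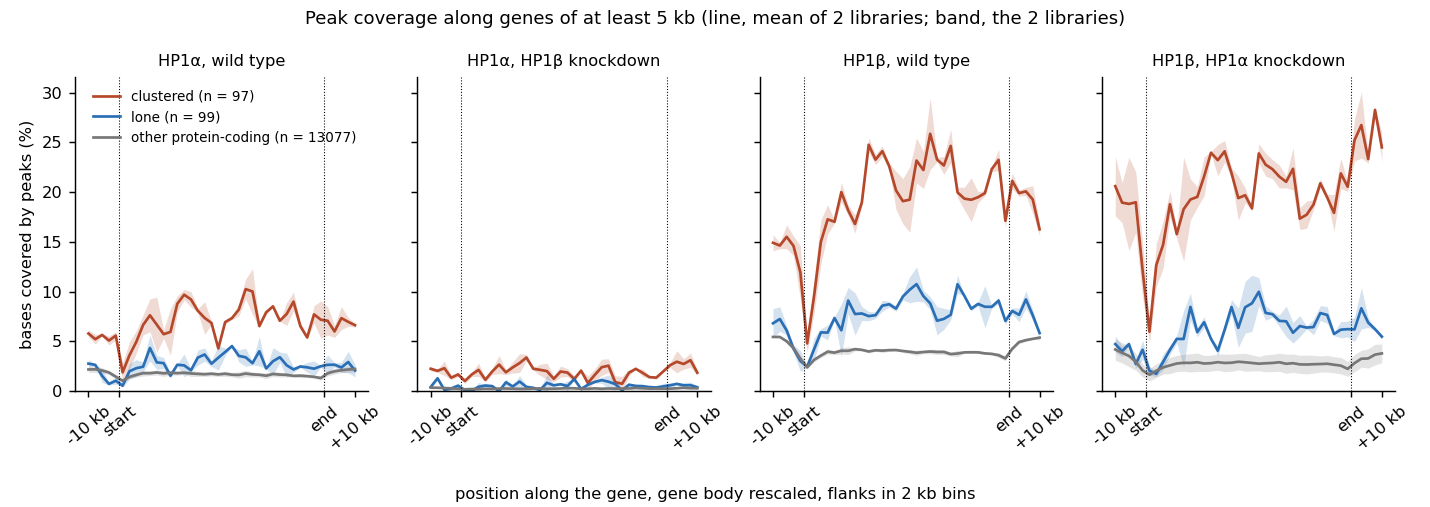
Covered share (%, vertical axis) along genes of at least 5 kb, from 10 kb before the start to 10 kb after the end with the body rescaled (horizontal axis), as the mean of 2 libraries (line) and both libraries (band). Clustered members drop to 5.62 and 3.98% in the first bin of the body in wild-type HP1b and reach 23.7 and 20.9% in the middle 10 of its 30 bins.

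Gene starts were looked at in the RefSeq windows of 300 bases, from 250 before a start to 50 after it, in 271 windows of 205 members. A wild-type HP1b peak touched 4.06% of these windows in each library, against 3.13 and 3.80% of 21593 windows of other protein-coding genes. Wild-type HP1a touched 0.738 and 1.48% of the member windows, against 1.76 and 1.24%. The clustered windows had more, with wild-type HP1b peaks at 6.35 and 5.56% of 126, and the 145 lone windows had 2.07 and 2.76%. After HP1a knockdown an HP1b peak touched 2.58 and 6.64% of the member windows, against 1.53 and 2.82% in other genes. The windows with peaks in several libraries were poor in CpG. The median number of CpG was 24 in the 239 windows with no peak, 20 in the 19 windows with a peak in 1 library and 7 in the 13 windows with peaks in 2 or more libraries. In other genes the medians were 22, 7 and 5. A peak in any library touched 14 of the 40 member windows with fewer than 10 CpG (35%), 7 of 60 with 10 to 19 (11.7%) and 11 of 171 with 20 or more (6.43%). The windows of other genes gave 22.5, 10.9 and 4.22%.

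The 250 bases before the start are shown for 4 clustered genes, to set starts with and without peaks side by side. They are RefSeq sequences of GRCh38.p14, all on the + strand and 5′ to 3′, with each CpG in capitals. ZNF679 (chr7:64228224-64228473) and ZNF727 (chr7:64045184-64045433) stand in the 10-gene cluster of chromosome 7, and their windows had a peak in 4 libraries each. ZNF84 (chr12:133037259-133037508) had no peak at its start in any library, and ZNF454 (chr5:178940948-178941197) had one in 1 library, although both genes were covered well inside.
ZNF679: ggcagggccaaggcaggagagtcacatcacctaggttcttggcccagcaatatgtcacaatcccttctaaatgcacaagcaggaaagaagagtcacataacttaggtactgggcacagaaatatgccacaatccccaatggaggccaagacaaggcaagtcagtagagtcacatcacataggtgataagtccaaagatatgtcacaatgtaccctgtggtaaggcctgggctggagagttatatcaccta
ZNF727: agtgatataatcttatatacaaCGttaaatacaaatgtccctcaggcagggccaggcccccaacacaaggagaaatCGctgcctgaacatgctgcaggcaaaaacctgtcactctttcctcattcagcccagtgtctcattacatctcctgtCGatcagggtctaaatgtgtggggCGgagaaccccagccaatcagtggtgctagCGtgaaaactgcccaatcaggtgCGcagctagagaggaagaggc
ZNF84: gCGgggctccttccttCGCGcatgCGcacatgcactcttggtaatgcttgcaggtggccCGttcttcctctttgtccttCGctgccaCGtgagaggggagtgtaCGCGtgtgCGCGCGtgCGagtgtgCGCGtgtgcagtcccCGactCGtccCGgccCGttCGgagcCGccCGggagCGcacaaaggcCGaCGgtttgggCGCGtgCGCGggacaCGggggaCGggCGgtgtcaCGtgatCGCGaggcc
ZNF454: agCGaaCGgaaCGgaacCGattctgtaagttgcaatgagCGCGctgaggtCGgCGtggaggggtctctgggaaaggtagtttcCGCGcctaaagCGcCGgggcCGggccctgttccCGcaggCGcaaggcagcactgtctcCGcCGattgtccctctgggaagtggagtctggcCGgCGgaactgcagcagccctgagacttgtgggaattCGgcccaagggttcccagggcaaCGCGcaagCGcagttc
The stretch of ZNF679 holds 0 CpG and that of ZNF727 holds 6, while those of ZNF84 and ZNF454 hold 35 and 23. Inside the gene, wild-type HP1b covered 39.4 and 40.1% of ZNF679 and 48.0 and 52.8% of ZNF84, so the bodies were covered alike where the starts were not. The letters TTCCGG, searched on both strands, occurred in 39.1% of the member windows against 20.6% of the windows of other genes and 21.2% of all 22132 windows. The share was 42.1% for clustered and 36.6% for lone members. It was higher, at 51.1%, in the 268 windows of ZNF genes on chromosome 19. GGGCGG occurred in 56.8% of member and 56.3% of all windows, and CACGTG in 5.90 and 8.34%. The 3 motifs do not contain one another, and a match is a run of letters, not a bound site.

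**Figure D4:**
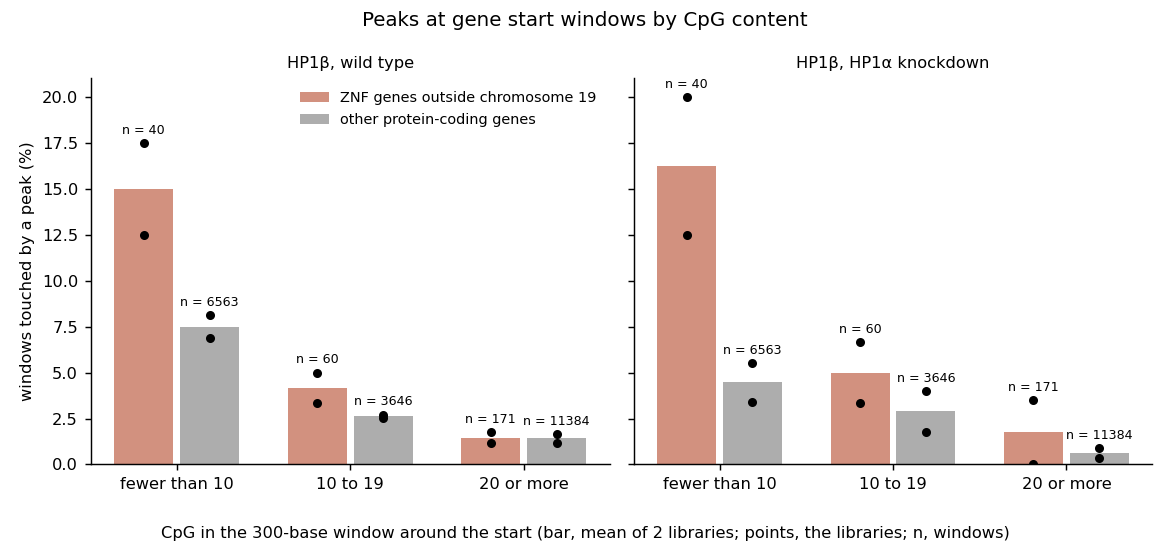
Share of 300-base start windows touched by an HP1b peak (%, vertical axis) by the number of CpG in the window (horizontal axis), for ZNF genes outside chromosome 19 and other protein-coding genes, with bars for the mean of 2 libraries and points for each. In wild type, 17.5 and 12.5% of the 40 member windows with fewer than 10 CpG were touched, against 1.17 and 1.75% of the 171 with 20 or more.

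The first comparison was HP1a in HP1b knockdown against wild type, which bears on whether HP1a stays on these genes when its paralog is reduced. HP1a coverage of members was lower in both knockdown libraries, with a mean of 1.13 and 1.24% against 5.31 and 4.57%. The whole lists shrank more than the members did. Members held 0.806 and 0.809% of all HP1a peak bases in wild type and 1.14 and 1.21% after knockdown, and clustered members 0.453 and 0.482% against 0.711 and 0.774%. Of the 146 members with a peak in both wild-type libraries, 48 (32.9%) had none in either knockdown library, where 47% of all 7945 such genes had none. A peak was listed in all 4 libraries at 60 members (41.1%), against 21.7% of all such genes. Clustered genes lost their peaks at 19 of 75 (25.3%) and kept them at 42 (56.0%), and lone genes lost them at 29 of 71 (40.8%) and kept them at 18 (25.4%). These counts moved with the peaks taken. With the same number of top peaks from every library, 3 of 52 members lost their peaks (5.77%) and 33 kept them (63.5%). Over all genes these shares were 21.8 and 46.1%. In this setting 6 of 251 members gained a peak, against 436 of 19974 genes. With peaks of −log10 p of at least 4, 19 of 77 were lost (24.7%), against 46.5% of all genes.

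Gene by gene, relative coverage was tested with limma on log2 of the bases covered per Mb of all peak bases, over the 8878 genes that had peaks in 2 or more of the 4 libraries. Of the 158 members tested, 31 (19.6%) fell and 5 (3.16%) rose at an adjusted p under 0.05 (limma, Benjamini-Hochberg over all genes). The background was 28.9% of all genes falling and 1.79% rising. All 31 genes that fell were listed at 0 in both knockdown libraries. They passed the filter through the wild-type libraries alone, and their p sets the spread of the wild-type values against a fixed pseudocount. The falls are therefore a description of genes with no listed knockdown peak, and no fold or p is given for them. The clustered genes had 14 falls and 3 rises of 82 and the lone genes 17 and 2 of 76. The median log2 change was −1.23 over all genes, −0.46 over the members tested, 0.21 over the clustered and −0.98 over the lone ones. Of the 158 members tested, 48 were listed at 0 in both knockdown libraries. Their changes set wild-type values against the pseudocount, so the medians rest on it in part. Without scaling to all peak bases, the medians were −2.15, −1.78, −1.68 and −1.97, so the sign for the clustered genes turned with the scaling. The calls rested on the settings. No member passed with a pseudocount multiplied by 4, without the filter, with the same number of top peaks or with peaks of −log10 p of at least 4, where 52, 47, 19 and 24 members had an unadjusted p under 0.05 (limma). Leaving out 1 wild-type library left at most 1 library with a peak at genes listed at 0 in both knockdown libraries. Such genes were then not tested. These fits, with 103 and 106 members tested, therefore cannot show whether the falls hold. Without knockdown replicate 1 or replicate 2, 20 and 20.9% of the members fell and 22.7 and 17.6% rose, against 30.4 and 28.4% falling and 10.5 and 12.9% rising over all genes.

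ZNF37A, a KRAB zinc finger gene of chromosome 10 (chr10:38094337-38150293), was among the falls. HP1a peaks covered 10.9 and 11.3% of it in wild type, as 12 and 14 peaks with a highest fold of 5.25 and 3.9, and no peak was listed in either knockdown library. HP1b covered 26.2 and 28.3% of it in wild type and 17.7 and 20.5% after HP1a knockdown. ZNF12 on chromosome 7, another KRAB gene, had 12.2 and 17.2% under HP1a peaks in wild type and none after HP1b knockdown. The other falls taken by the naming rule were ZNF485, ZNF239, ZNF70, ZNF25 and ZNF212, with wild-type HP1a shares between 2.28 and 5.05%. That rule orders genes by p, which for these falls sets wild-type spread against a pseudocount. Their choice therefore does not rank the effect of the knockdown. ZNF34 and ZNF722 were also among the lost genes with the highest fold. Of these, ZNF722 had 8.36 and 1.31% in wild type and did not pass (adjusted p = 0.149, limma).

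The 5 genes that rose did so on the relative scale, as a share of a much shorter list. In covered share itself, ZNF454 and ZNF678 were lower in both knockdown libraries, ZNF469 overlapped, and ZNF287 and ZNF232 were higher in both. ZNF454, a KRAB gene of chromosome 5 (chr5:178941198-178990028), had 21.4 and 22.2% of its bases under HP1a peaks in wild type and 18.3 and 15% after HP1b knockdown. Both knockdown libraries lay below both wild-type libraries, and yet its relative coverage rose by 2.30 (log2, SE 0.20, adjusted p = 0.0248, limma). Without scaling the log2 change was −0.39 (SE 0.23). ZNF678 rose by 1.05 (SE 0.12, adjusted p = 0.0248, limma) on the relative scale and fell by 1.66 (SE 0.12) without scaling, and with the same number of top peaks it had a change of −1.38 (SE 0.18). ZNF469, a lone gene mutated in brittle cornea syndrome, had 1.06 and 0.533% in wild type and 1.02 and 0.739% after knockdown. ZNF287 had 2.62 and 2.16% against 3.53 and 4.25%. ZNF232, a gene with a SCAN domain, was listed at 0 in both wild-type libraries and had 1.52 and 2.54% after knockdown. It was the 1 member gained of 251, against 54 of 19974 genes (0.27%), and its knockdown peaks were at most 0.294 kb wide. When knockdown replicate 1 or 2 was left out, 4 members were gained each time, against 322 and 408 of all genes.

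**Figure D5:**
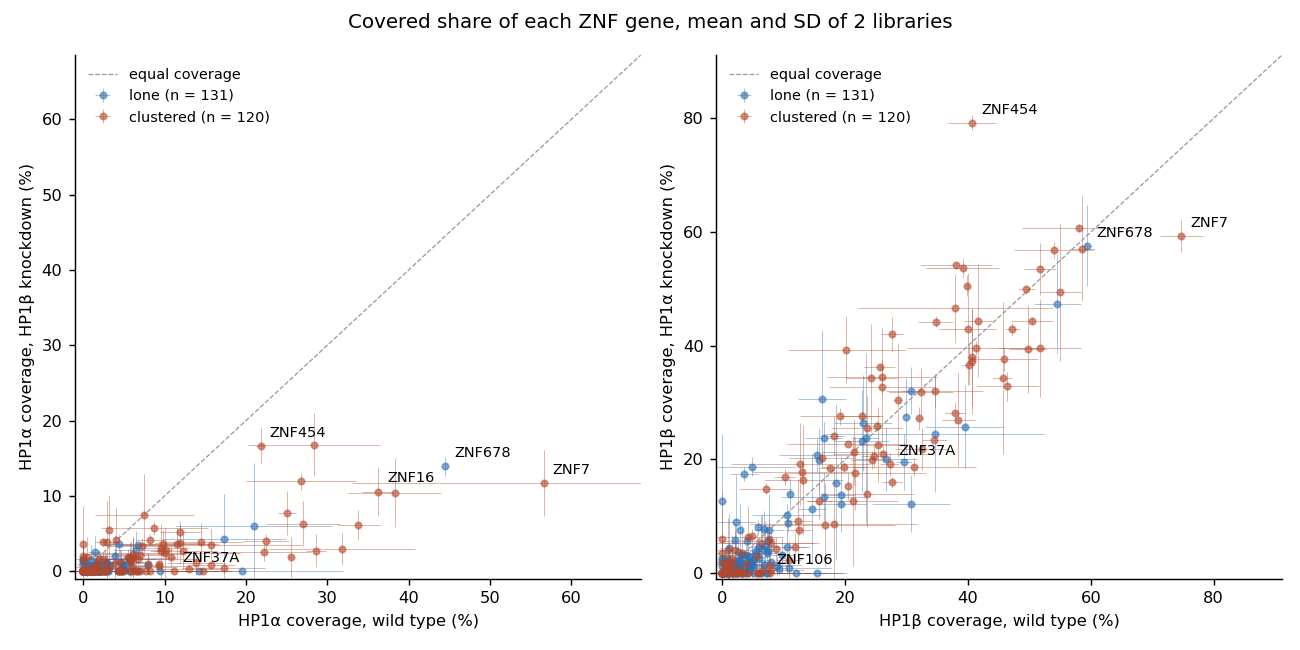
Covered share of each of the 251 genes in wild type (%, horizontal axis) and with the other paralog knocked down (%, vertical axis), for HP1a (left) and HP1b (right), as mean and SD of 2 libraries. Below the line of equal coverage lie 187 of the 204 genes with an HP1a peak and 149 of the 231 genes with an HP1b peak, with ZNF454 far above at 80.1 and 78.3% against 37.9 and 43.5%.

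The second comparison was HP1b in HP1a knockdown against wild type. Mean member coverage was 11.6 and 12.9% after knockdown and 13.4 and 13.2% in wild type. The medians stood further apart, at 2.34 and 4.70% against 6.06 and 6.14%, and 64.1 and 74.9% of members had a peak against 82.1 and 81.3%. Clustered genes had 18.3 and 20.2% against 20.4 and 19.6%, where the groups overlapped. Lone genes had 5.44 and 6.12% against 7.04 and 7.31%, and other protein-coding genes 1.91 and 3.63% against 3.61 and 4.05%. Of the 186 members with a peak in both wild-type libraries, 19 (10.2%) lost and 143 (76.9%) kept their peaks, against 14.2 and 63.6% of all 11100 such genes. The clustered genes lost 5 of 92 (5.43%) and the lone genes 14 of 94 (14.9%). Without wild-type replicate 1, 31 were lost (15.2%, against 21.1% of all genes), and without knockdown replicate 2 it was 40 (21.5 against 33.5%). With peaks of −log10 p of at least 4, 0 of 97 were lost, against 11.2% of all genes.

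In the fit of relative coverage, limma called 0 of 208 members and 0 of 13101 genes (0% rising and 0% falling), with 34 members and 3264 genes at an unadjusted p under 0.05. The median log2 change was −0.48 over all genes, 0.07 over clustered and −0.34 over lone members, and −0.58, −0.08 and −0.47 without scaling. Without knockdown replicate 2, 5 members rose and 16 fell (2.53 and 8.08%, against 2.35 and 15.5% of all genes). The numbers of calls moved with single libraries, and the shorter of the 2 knockdown lists had 159536 peaks against 225991.

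ZNF454 had the largest positive moderated t among the members. HP1b peaks covered 37.9 and 43.5% of it in wild type and 80.1 and 78.3% after HP1a knockdown, so the groups were far apart. Its HP1b peaks numbered 16 and 18 in wild type and 10 in each knockdown library, while the widest grew from 5.22 and 4.43 kb to 10 and 14.7 kb. The relative change of 1.13 (log2, SE 0.25) did not pass (adjusted p = 0.144, limma), and the adjusted p was 0.038 without knockdown replicate 1 and 9.27e-05 without replicate 2. The gene belongs to the cluster from ZNF354A to ZNF354C, whose 5 genes had 43.7 and 42.6% in wild type and 60.2 and 57.4% after knockdown. Its neighbour ZNF354C had 58.5 and 49.4% against 57.8 and 55.9%, so the groups overlapped there. ZNF883 on chromosome 9, a lone gene, had 1.95 and 5.12% against 18.4 and 16.5%. ZNF469 had 2.79 and 2.90% against 4.19 and 10.8%.

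The largest negative t belonged to lone genes of chromosome 15. ZNF106, which encodes a protein that binds RNA, had 5.79 and 8.77% under HP1b peaks in wild type and none listed after HP1a knockdown. ZNF592 had 3.28 and 2.78% and ZNF774 had 12.2 and 18.4%, and both were listed at 0 after knockdown. These genes passed the filter through the wild-type libraries alone, so their t sets wild-type spread against a fixed pseudocount. Their values are given as a description, and none of them passed the threshold. ZNF774, ZNF337, ZNF106 and ZNF385A were the lost genes with the highest fold. The gained genes were ZNF24, with 2.45 and 4.76%, and ZNF80, a short gene with 20.9 and 4.45%. They were 2 of 251 members, against 205 of 19974 genes (1.03%). Leaving out 1 library gave between 3 and 9 gained members, against between 353 and 885 of all genes.

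The third comparison set HP1b beside HP1a in wild type. It shares its libraries with the others, so the values are given side by side without an overlap between comparisons. The 2 antibodies differ, and only relative coverage was tested. limma called 0 of 204 members and 0 of 13090 genes (0% in each direction), with 34 members and 1665 genes at an unadjusted p under 0.05. The median log2 difference, HP1b minus HP1a, was 0.10 over all genes, 0.32 over clustered and 0.25 over lone members. Of the 146 members with HP1a peaks in both libraries, 142 (97.3%) had HP1b peaks in both and 0 had none, against 92 and 1.47% of all genes. HP1b alone was listed in both libraries at 13 of 251 members, a smaller share than the 1326 of 19974 genes (6.64%). ZNF638, ZNF658, ZNF142 and ZNF232 had the highest fold among these members. The number of members was 33 and 24 without HP1a replicate 1 or 2 and 22 and 24 without HP1b replicate 1 or 2. All genes gave 2883, 2235, 2503 and 2283 in these settings. ZNF638, whose product silences retroviral DNA outside the genome, had 0.368 and 0.225% under HP1b peaks.

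By moderated t, relative coverage leaned to HP1a at ZNF678 (log2 difference −0.86, SE 0.17), ZNF124 (−0.89, SE 0.18) and ZNF608 (−1.38, SE 0.39). Without scaling the differences of ZNF678 and ZNF124 turned to 0.42 and 0.37. ZNF608, a lone gene of chromosome 5, had 5.53 and 6.09% under HP1a and 3.81 and 6.98% under HP1b peaks, and here the 2 proteins overlapped in share. The lean was to HP1b at ZNF75A, with 6.99 and 9.53% under HP1a and 57.3 and 52.6% under HP1b peaks (1.38, SE 0.38). The smallest adjusted p of these genes was 0.360 (limma). Without wild-type HP1a replicate 1 the median log2 difference was 0.40 over the members and 0.14 over all genes. Without replicate 2 it was 0.25 and −0.05.

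The difference between the 2 knockdown effects was tested as an interaction in 1 fit of all 8 libraries. limma called 0 of 176 members and 0 of 10366 genes (0% in each direction), with 28 members and 1757 genes at an unadjusted p under 0.05. The lowest p values belonged to ZNF37A (difference 4.89 on the log2 scale, SE 0.74) and ZNF860 (4.07, SE 0.82), each with an adjusted p of 0.0977 (limma). Both were listed at 0 for HP1a after HP1b knockdown, so these differences depend on the pseudocount. ZNF860 had 12.8 and 15.7% under HP1a peaks in wild type, and 30.4 and 28.6% under HP1b peaks in wild type against 16.1 and 23% after HP1a knockdown. On the other side, ZNF618 had a difference of −2.59 (SE 0.69, adjusted p = 0.140, limma), with HP1a shares of 1.09 and 1.46% against 0.789 and 0.668% and HP1b shares of 6.70 and 8.04% against 3.92 and 3.73%. Without scaling, 21 members passed, all with a higher change for HP1b than for HP1a (11.9%, against 9.4% of all genes). Leaving out replicate 1 or replicate 2 of HP1a in HP1b knockdown gave 19 and 23 in that direction (10.8 and 13.1%, against 11.8 and 11.7% of all genes) and 9 and 8 in the other (5.11 and 4.57%, against 3.43 and 4.46%).

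The genes for partners of KRAB zinc finger proteins were not covered like the zinc finger genes. The list held 22 genes, among them TRIM28, SETDB1, the methyltransferase genes SUV39H1 and SUV39H2, the genes of the HUSH complex and the HP1 genes. Their mean covered share in wild type was 1.21 and 0.808% for HP1a and 2.02 and 2.74% for HP1b. TRIM28 and DAXX had no peak in any library. The highest shares were those of SUV39H1, with 13.8 and 7.26% under wild-type HP1b peaks, ATRX, a chromatin remodeller, with 6.52 and 9.93%, and ATF7IP, which binds SETDB1, with 6.40 and 5.49%. In HP1b knockdown against wild type, 10 of the 22 were tested for HP1a, and 4 fell and 0 rose (limma, threshold 0.05, against 28.9% and 1.79% of all genes). The 4 were HDAC1, SUV39H1, DNMT1 and MPHOSPH8, each listed at 0 in both knockdown libraries, so the limit given above for such falls holds here too. None of the list passed in the other comparisons, with 15, 16 and 12 tested and 4, 3 and 2 at an unadjusted p under 0.05 (limma).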

How the data were processed

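HP1a and HP1b ChIP-seq was analysed from 8 deposited broad peak lists of MCF10A cells, 2 libraries in each of 4 groups. MACS3, Bowtie2, Trimmomatic, SAMtools and hg38 as build are listed in the submitters' processing notes. Not given in the sources used here were versions, settings and any input library. Per the deposited lists, each peak has a position, a score, a fold enrichment as a ratio, and −log10 p and −log10 q values, which the authors' peak caller set for each library alone. Positions gave all coverage, the deposited fold ranked lost and gained genes, and −log10 p set the stricter lists.

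The lists were limited to autosomes and X, which kept 99.1 to 99.7% of their peaks, and overlapping peaks were merged. Gene bounds, strands and start windows came from RefSeq on GRCh38.p14, and 205 members had a strand. With their flanks, 19 members overlap another member and share bases with it. Relative coverage was tested with limma 3.58.1 in R 4.3.3 (moderated t, variance trend) on log2 of covered bases per Mb of peak bases plus a pseudocount, the 10th percentile of values above 0. Genes needed a peak in at least 2 of 4 libraries (4 of 8 for the interaction), with Benjamini-Hochberg adjustment over all genes tested. Other steps used Python 3.11. The fit was run on simulated data for the comparisons of 2 groups. These held only genes with peaks in both reference libraries, no values at 0 and lists of equal total. They do not bear on calls that rest on values listed at 0 or on lists of unequal length. Lost genes had peaks in both libraries of one group and in neither of the group compared with it, gained genes the reverse, and kept genes had peaks in all 4.

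Named genes were, per comparison, the 6 lowest p values in each direction past the threshold (otherwise the 3 largest t) and the 4 lost and 4 gained genes of highest fold in the weaker library. The rule also took the 6 clustered and 6 lone genes of highest share, the top gene of the 6 largest clusters and up to 3 partner genes. Members, lists and alternatives were chosen with earlier results of these data known.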

Additional observations from a re-analysis of the deposited data

How the results depend on the processing

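Clustered genes exceeded lone genes in 8 of 8 libraries under all 11 settings tried. Their difference in covered share, in percentage points for wild-type HP1a, HP1a after HP1b knockdown, wild-type HP1b and HP1b after HP1a knockdown, was 4.98, 1.4, 12.8 and 13.5. It was 2.06, 1.36, 5.25 and 4.16 with the same number of top peaks, 3.33, 0.822, 7.11 and 8.64 when −log10 p had to reach 4, 3.9, 1.23, 10.9 and 11.6 for a window of 1 Mb and 6.65, 1.70, 17.1 and 17.6 with pooled bases. Among settings chosen after seeing the data, it was 3.13, 0.781, 11 and 11.8 without chromosomes 1, 5 and 8, and 1.09, 11.6 and 11.1 for the last 3 groups after subtracting the surrounding 1 Mb. HP1a after HP1b knockdown also had 1.43 with no flank, 1.5 with 5 kb, 1.52 with a window of 100 kb and 1.29 with ZFP, ZSCAN and ZKSCAN genes as neighbours. For HP1a in HP1b knockdown, 5 members rose and 31 fell (3.16 and 19.6%, against 1.79 and 28.9% of all genes). The numbers were 0 and 0 with the pseudocount multiplied by 4, no filter, equal numbers of peaks or the stricter p limit. Over all genes they were 0 and 0 too. With no scaling they were 1 and 72 (0.633 and 45.6%, against 0.541 and 51.7% of all genes). With all 8 libraries in 1 fit, 15 rose and 38 fell (9.49 and 24.1%, against 4.12 and 33.5% of all genes). Leaving out 1 library gave 0 to 34 rises and 0 to 32 falls. With a replicate block, 1 rose and 0 fell for HP1a (0.633 and 0%, against 0.214 and 0% of all genes). For HP1b in HP1a knockdown 2 rose and 2 fell (0.962% each, against 1.01 and 2.43% of all genes). The replicate numbers were not shown to pair the libraries, since deviations of equal numbers correlated at 0.023, 0.044 and −0.013 in the 3 comparisons, and the block changed no call in the other fits. For HP1b in HP1a knockdown, leaving out 1 library gave 0 to 5 rises and 0 to 16 falls, for HP1b against HP1a 0 to 14 and 0 to 3, and for the interaction 0 to 23 and 0 to 9, with 21 rises under no scaling. A lone library was assumed to vary like the others. For HP1a in HP1b knockdown, 48 members lost peaks, 3 with equal numbers of peaks and 19 under the stricter p limit. For HP1b in HP1a knockdown it was 19, with 0 under the stricter p limit and 22 to 40 without 1 library. For HP1b against HP1a it was 0, with 3 and 3 under those settings and 2 to 4 without 1 library. Of 679 alternative values, 444 kept their direction and call or stayed within the limits set for counts and values, and 23 changed sign. A count cannot change sign, and no difference in covered share did so. Of the 239 counts and covered shares, 143 stayed within the limits and 57 moved past them. A further 16 counts fell to 0 and 23 rose from 0. For HP1a in HP1b knockdown, the log2 change of ZNF454 was −0.39 and that of ZNF678 −1.66 with no scaling, and ZNF678 had −1.38 with equal numbers of peaks. For HP1b against HP1a, ZNF678 had 0.42 with no scaling and 0.23 under the stricter p limit, and ZNF124 had 0.37 and 0.08. ZNF782, one of the 3 genes with the most negative t in the interaction, had 0.14 under the stricter p limit. For HP1a in HP1b knockdown, the clustered median was −0.29 with no filter, −1.68 with no scaling, −0.01 with equal numbers of peaks and −0.56 under the stricter p limit, and the lone median was 0.12 with equal numbers of peaks. Leaving out 1 library gave medians from −0.79 to 0.54 over the members, −0.02 to 0.65 over clustered and −1.51 to 0.18 over lone genes. The medians without 1 wild-type library hold no gene listed at 0 in both knockdown libraries. For HP1b in HP1a knockdown, the clustered median was −0.08, −0.10 and −0.59 with no scaling, equal numbers of peaks and the stricter p limit, and −0.07 to 0.20 without 1 library, and the lone median was 0.03 under the stricter p limit. The cause of these shifts was not tested, nor was the part of list length in the counts of lost genes. The depth behind the lists is unknown.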

Other observations

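Start windows with repeated peaks lay mostly on chromosome 7. Of the 271 start windows of 300 bases, 37 belong to 31 members on chromosome 7. A peak touched 32 windows in at least 1 library, 11 of them on chromosome 7. In at least 3 libraries a peak touched 8 windows, and 7 of these were on chromosome 7, at the 6 genes ZNF479, ZNF679, ZNF716, ZNF727, ZNF722 and ZNF735. ZNF679, ZNF727, ZNF722 and ZNF735 belong to the 10-gene cluster, and ZNF479 and ZNF716 are lone genes with a gap of 310312 bases between them. ZNF479 had 25.8 and 19.5% of its bases under wild-type HP1b peaks and 29.6 and 16.9% after HP1a knockdown. ZNF716 had 23.05 and 30.2% against 24.1 and 16.1%. These genes were chosen after their values were seen, and no test was made over windows.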
